A study of Homo sapiens with 6 samples.

Results

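The BCL2 family genes described here were the 10 rows of the deposited expression table whose symbol was BCL2, MCL1, BCL2L1, BCL2A1, BCL2L11, BAX, BAK1, BBC3, PMAIP1 or BID, out of 15059 genes in all. They were chosen by name, 4 as protective and 6 as death-promoting members, and all 10 passed the filter on low values. In METTL16-knockout cells BCL2A1 and BCL2, both protective, fell against control cells, while BCL2L11, BAX, BAK1 and BID, all death-promoting, rose. MCL1, which is protective, also rose, and BBC3, which is death-promoting, fell. Of these calls BAX lost its own in 4, BID in 6 and BBC3 in 3 of the 15 alternative settings tried, and the other 5 genes in none.

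The cells were NOMO-1, an established human line from an acute monocytic leukaemia, and total RNA was sequenced in 3 groups of 2 libraries. The rescue cells (sgMETTL16+OE-METTL16) overexpressed METTL16 and carried a guide RNA against the endogenous gene. The knockout cells (sgMETTL16+EV) carried a METTL16 guide and an empty vector, and the control cells (sgNS+EV) carried a control guide and the empty vector. All 3 groups had thus been transduced and selected with puromycin at 2 µg/ml, and rescue cells, too, carried the METTL16 guide. Whether each group was a pool or a clone, and whether the replicates were separate cultures, is not given in the sources used here, so a p-value here covers the spread among libraries, which may be technical. Values are abundances from RSEM, which are set relative to transcript length, and are named signal throughout. Fold changes are on the log2(signal + 1) scale, and a gene was called where its adjusted p from limma was under 0.05.

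BCL2 proteins decide whether the outer membrane of the mitochondrion is opened during apoptosis. Protective members hold the effectors BAX and BAK in check. BH3-only proteins bind the protective members, which sets the effectors free, and some can also activate the effectors. Once BAX and BAK form pores, cytochrome c leaves the mitochondrion, binds APAF1 and starts the caspase cascade. Myeloid leukaemia cells are known to depend on protective members, and BCL2 and MCL1 are drug targets in this disease.

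The signal summed over all genes was between 597160 and 681928 per library, and read totals are not stated in the sources used here, so the depth is unknown. Control replicate 2 lay below the other libraries, with a median log2 deviation over genes of -0.10, against 0.0024 to 0.04 in the other 5. METTL16, the targeted gene (ENSG00000127804, chromosome 17, 2405562 to 2511891, minus strand, GRCh38), had a signal of 12.3 and 12.1 in rescue and 6.05 and 5.83 in knockout, against 9.89 and 9.63 in control. METTL16 was thus lower in knockout than in control (limma, log2 change -0.63, adjusted p = 4.76e-05) and higher in rescue than in knockout (0.93, adjusted p = 3.18e-06). An edited gene can still be transcribed, and reads of the added copy cannot be told from those of the gene. Of the 12 myeloid markers 10 were measured, and MPO and CD14 were not analysed here. Their summed signal was 361 to 368 in rescue and 477 to 479 in knockout, against 295 to 317 in control, with 8 of the 10 called higher in knockout than in control and none lower, where 26.2% of all genes tested were called higher and 13.5% lower. Markers of lymphoid, erythroid and epithelial cells were measured for 5 genes of 18, each with a signal of at most 2.02. In bulk RNA, fewer cells of a type and less RNA per cell cannot be told apart, and the part of these markers in the values below was not tested.

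METTL16 is an N6-adenosine methyltransferase known for the U6 small nuclear RNA and for hairpins in the 3' UTR of MAT2A messenger RNA, in which it acts within a short sequence. That sequence was searched, on the transcript strand, in the longest protein-coding transcript of each gene in GENCODE release 29, in its forms TACAGAGAA and TACAGAAAA. The MAT2A signal was 134 and 138 in rescue and 77.6 and 78.1 in knockout, against 140.2 and 132 in control (log2 change -0.80 in knockout, limma adjusted p = 2.00e-07). The MAT2A transcript held 5 matches to the first form and 1 to the second. Among the 10 BCL2 family transcripts, of 1033 to 7461 nt, the first form had no match and the second had 1, in BCL2, where the first form is in 3.27% and the second in 4.78% of 19669 transcripts. The sites are shown because they are the best known sequence on messenger RNA that METTL16 acts on. Each is 9 bases in capitals with 10 bases on either side. All 3 lie in the 3' UTR, at chr2:85543812-85543820 and chr2:85545014-85545022 on the plus strand and chr18:63124234-63124242 on the minus strand of GRCh38. A match is a string of letters and does not show a hairpin or methylation.
MAT2A, first site: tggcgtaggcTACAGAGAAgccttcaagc
MAT2A, site of the second form: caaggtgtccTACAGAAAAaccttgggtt
BCL2, site of the second form: ttatgtacaaTACAGAAAAaaattttata

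**Figure D1:**
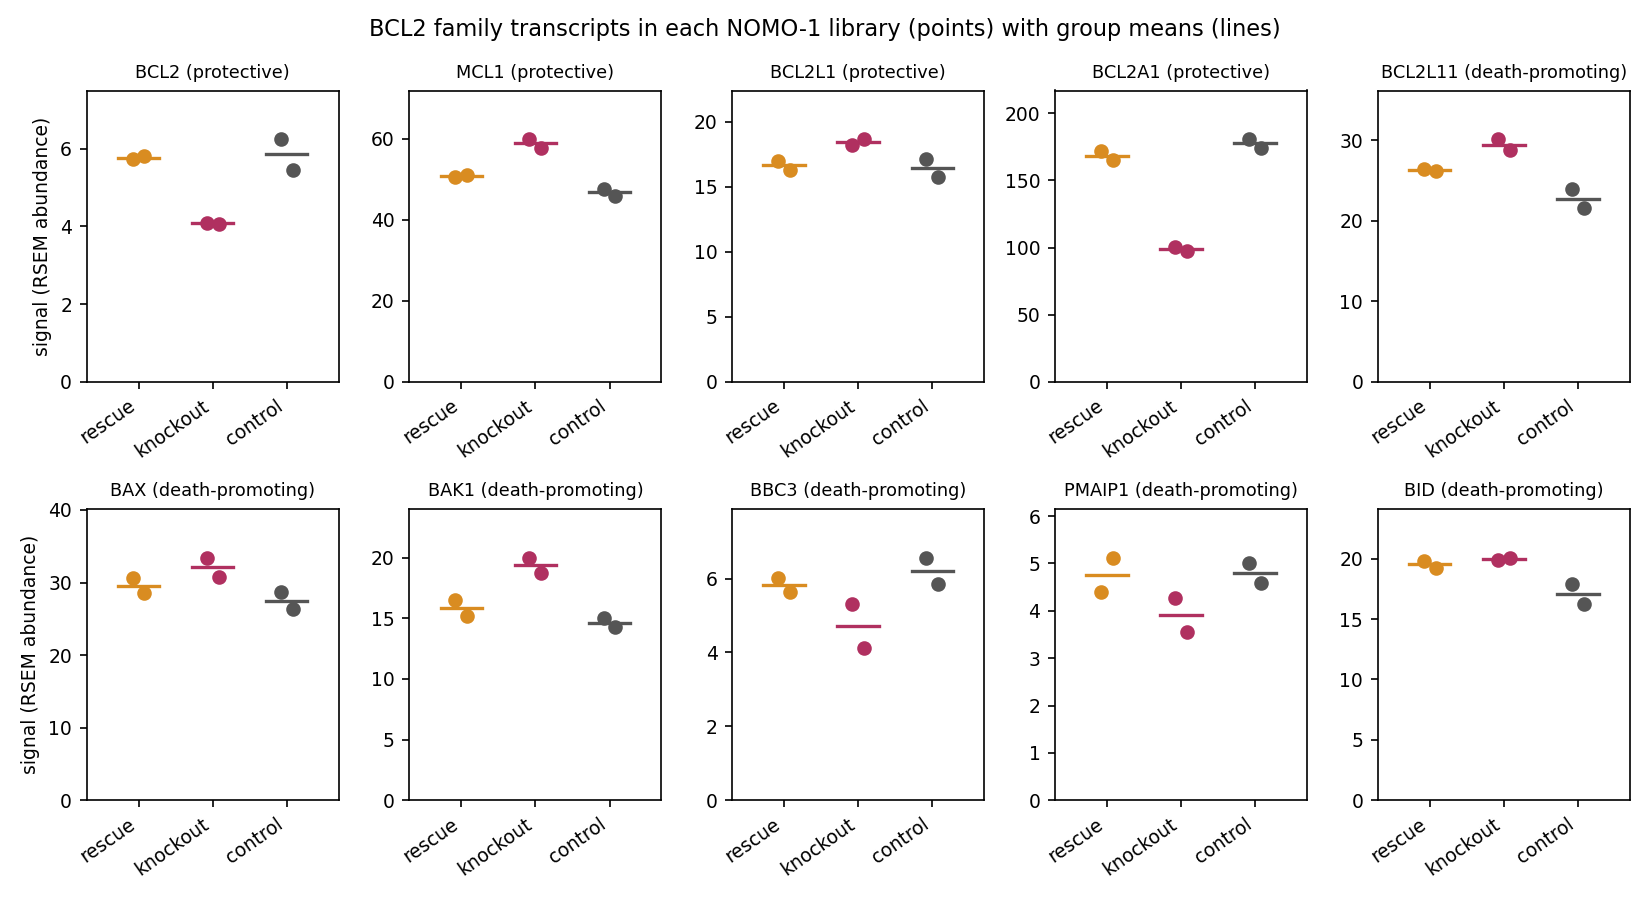
Signal (RSEM abundance, linear axis from 0) of the 10 BCL2 family genes in each library; points are libraries, lines are means of 2 libraries, and groups run from rescue through knockout to control. BCL2A1 and BCL2 are lowest in the knockout libraries, and MCL1, BCL2L11, BAX and BAK1 are highest there.

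BCL2A1 (ENSG00000140379, chromosome 15, 79960889 to 79971446, minus strand, GRCh38) encodes the protective protein BFL1, which binds BH3-only proteins and is best known in blood cells. It was the most abundant of the 10 genes in every library and changed most. Its signal was 172 and 165 in rescue and 100.2 and 97.4 in knockout, against 181 and 174 in control. Both knockout libraries lay far below the other 4, and the mean was 0.556 of control (log2 change -0.84, SE 0.053, limma adjusted p = 8.86e-08). In rescue against knockout the log2 change was 0.76 (limma adjusted p = 3.58e-07). The rescue mean was 0.949 of control, and that difference did not pass the test (log2 -0.07, 95% interval -0.19 to 0.04, limma adjusted p = 0.641).

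BCL2 (ENSG00000171791, chromosome 18, 63123346 to 63320128, minus strand), the founding protective member and the target of venetoclax, also fell. It had 4.09 and 4.05 in knockout and 5.73 and 5.80 in rescue, against 6.24 and 5.46 in control. The knockout libraries were again lowest, at 0.696 of the control mean (log2 change -0.43, SE 0.096, limma adjusted p = 0.0029). Rescue was 1.42 times the knockout mean (log2 0.42, limma adjusted p = 0.00492), and its libraries lay within the range of control (log2 -0.02, interval -0.22 to 0.19, limma adjusted p = 0.961). BCL2 was among the least abundant of the 10 genes, at about the level of BBC3 and PMAIP1.

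MCL1 (ENSG00000143384, chromosome 1, 150574551 to 150579738, minus strand), a protective protein of very short half-life on which myeloid cells rely, went the other way. Its signal was 50.7 and 51.2 in rescue and 59.97 and 57.8 in knockout, against 47.7 and 46.0 in control. The rescue libraries stood between the other groups. Knockout was 1.26 times control (log2 change 0.32, SE 0.058, limma adjusted p = 0.000632). Rescue lay below knockout (log2 -0.21, limma adjusted p = 0.0152), a call lost with no variance trend (adjusted p = 0.0574) and on leaving out either knockout library (0.158 for replicate 1, 0.0513 for replicate 2) or either rescue library (0.147 and 0.12). Over all alternatives the adjusted p was 0.00168 to 0.158. Both rescue libraries were above both control libraries, though the test was not passed (log2 0.12, limma adjusted p = 0.466).

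BCL2L1 (ENSG00000171552, chromosome 20, 31664452 to 31723989, minus strand) encodes the protective BCL-XL. It had 18.2 and 18.7 in knockout and 17.0 and 16.3 in rescue, against 17.1 and 15.7 in control. The knockout libraries were highest, but the log2 difference of 0.16 from control did not pass the test (95% interval 0.000053 to 0.32, limma adjusted p = 0.103). Without control replicate 1 it did (log2 0.22, adjusted p = 0.025, where the alternatives ranged from 0.025 to 0.369). The antisense transcript ABALON overlaps BCL2L1, with a signal of 3.28 to 4.004.

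Of the effectors, BAK1 (ENSG00000030110, chromosome 6, 33572547 to 33580293, minus strand), which sits in the outer mitochondrial membrane, had a larger log2 change than BAX, a difference that was not itself tested. Its signal was 20.0 and 18.7 in knockout and 16.5 and 15.2 in rescue, against 14.99 and 14.3 in control. Knockout stood at 1.33 times control with no overlap (log2 change 0.38, SE 0.076, limma adjusted p = 0.00134). Rescue was lower than knockout (log2 -0.28, limma adjusted p = 0.0134), a call lost without knockout replicate 1 (adjusted p = 0.149) or rescue replicate 2 (0.197), within a range of 0.00415 to 0.197. The annotation holds the pseudogene copies BAK1P1 and BAK1P2, which were not analysed here, and how reads shared with them were assigned is not known.

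BAX (ENSG00000087088, chromosome 19, 48954815 to 48961798, plus strand), which moves from the cytosol to the mitochondrion when activated, had 30.6 and 28.5 in rescue and 33.4 and 30.7 in knockout, against 28.7 and 26.3 in control. The knockout libraries were highest, and rescue overlapped control. Knockout was 1.17 times control (log2 change 0.21, SE 0.072, limma adjusted p = 0.0292). That call was lost with no variance trend (adjusted p = 0.0694), after median centring of the libraries (log2 0.15, adjusted p = 0.0795), without control replicate 2 (0.15, adjusted p = 0.137) and without knockout replicate 1 (0.15, adjusted p = 0.265), over a range of 0.0109 to 0.265. In rescue BAX passed the test neither against knockout (log2 -0.11) nor against control (log2 0.10). BAX and BAK1 together summed to 53.4 and 49.5 in knockout, against 43.7 and 40.6 in control.

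The BH3-only genes split. BCL2L11 (ENSG00000153094, chromosome 2, 111119378 to 111168447, plus strand) encodes BIM, which binds every protective member and can activate BAX and BAK. It had a signal of 26.4 and 26.2 in rescue and 30.1 and 28.7 in knockout, against 23.9 and 21.5 in control. Knockout was 1.30 times the control mean (log2 change 0.36, SE 0.070, limma adjusted p = 0.00111). Rescue libraries lay between the other groups and overlapped neither. Their difference from knockout was -0.16 (limma adjusted p = 0.105, and 0.0073 to 0.444 over the alternatives) and from control 0.21 (limma adjusted p = 0.282), on the log2 scale. The difference from knockout passed under 5 alternatives, which were quantile normalization (adjusted p = 0.0073), median centring (0.0182), only the 2 groups in the fit (0.0291) and leaving out control replicate 1 (0.0296) or control replicate 2 (0.0295). The long non-coding gene MIR4435-2HG overlaps BCL2L11 on the opposite strand, with a signal of 9.38 to 12.5. The kit keeps strand, but whether counting used it is not known.

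BID (ENSG00000015475, chromosome 22, 17734138 to 17774770, minus strand), which caspase 8 cleaves to carry a death receptor signal to the mitochondrion, had 19.8 and 19.2 in rescue and 19.9 and 20.1 in knockout, against 17.9 and 16.3 in control. Both control libraries lay below the other 4. BID thus rose in knockout by 0.22 on the log2 scale (SE 0.073, limma adjusted p = 0.0283). With only the 2 groups in the fit the call was lost (adjusted p = 0.0587). It was also lost on leaving out control replicate 2 (0.0647), either knockout library (0.123 for replicate 1, 0.143 for replicate 2) or either rescue library (0.0587 and 0.0582), over a range of 0.00832 to 0.143. Rescue stood next to knockout rather than control, at log2 -0.03 from knockout (interval -0.19 to 0.12) and 0.18 from control (0.03 to 0.34, limma adjusted p = 0.36).

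BBC3 (ENSG00000105327, chromosome 19, 47220822 to 47232766, minus strand) encodes PUMA, a BH3-only protein that binds every protective member. It had 5.31 and 4.11 in knockout and 6.03 and 5.63 in rescue, against 6.57 and 5.86 in control. Knockout libraries were lowest but far apart (log2 change -0.34, SE 0.11, limma adjusted p = 0.024). The call was lost without control replicate 1 (log2 -0.27, adjusted p = 0.149), control replicate 2 (-0.41, adjusted p = 0.0554) or knockout replicate 2 (-0.19, adjusted p = 0.328), over a range of 0.00406 to 0.328. The difference of rescue from knockout was 0.26 (limma adjusted p = 0.0842), with an adjusted p of 0.0229 to 0.631 over the alternatives. It was 0.11 without knockout replicate 2 (adjusted p = 0.631). It passed without knockout replicate 1 (log2 0.42, adjusted p = 0.0229) and with a mean signal of 5 as the filter (adjusted p = 0.0381).

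PMAIP1 (ENSG00000141682, chromosome 18, 59899948 to 59904306, plus strand) encodes NOXA, which binds MCL1 and BFL1 and hastens the loss of MCL1 protein. It was the least abundant gene by group mean, with 4.40 and 5.12 in rescue and 4.28 and 3.56 in knockout, against 5.02 and 4.59 in control. The knockout libraries were lowest, but the log2 difference of -0.24 from control did not pass the test (interval -0.47 to -0.01, limma adjusted p = 0.0914). It did after quantile normalization (log2 -0.32, adjusted p = 0.0196) and after median centring (-0.31, adjusted p = 0.0225). Without knockout replicate 2 the difference shrank to -0.14 (adjusted p = 0.525), and the adjusted p ranged from 0.0196 to 0.525 over the alternatives.

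Set against the whole table, 8 of the 10 genes were called in knockout against control, where 39.7% of 12734 genes tested were. Of these, 5 rose, where 26.2% of all genes rose, and 3 fell, where 13.5% did. Among the protective members 1 rose and 2 fell, with a median log2 change of -0.14, and among the death-promoting members 4 rose and 1 fell, with a median of 0.22. The median of all genes tested was 0.07. Knockout and control libraries did not overlap for any of the 10 genes, which was also so for 68.5% of all genes, so the separation itself is common in this comparison.

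In rescue against knockout 4 of the 10 were called, where 31.4% of all genes were. BCL2A1 and BCL2 rose (15.6% of all genes did) and MCL1 and BAK1 fell (15.9% did). This comparison shares the knockout libraries with the one before. All 10 genes again had libraries that did not overlap, as did 72.9% of all genes. In rescue against control limma called none of the 10 genes, where 0.283% of all genes were called (0.228% higher, 0.055% lower). At an unadjusted limma p under 0.05 there were 2 of the 10, BCL2L11 and BID, both higher in rescue, and 11.5% of all genes. Libraries did not overlap for 5 of the 10, with MCL1, BCL2L11, BAK1 and BID higher and BCL2A1 lower in rescue, where 39.9% of all genes did not. The median log2 change of all genes tested was 0.06 here. Over the alternatives that left out no single library, MCL1 was at 0.037 to 0.12 and BAK1 at 0.043 to 0.11. BCL2L11 was at 0.13 to 0.21, BID at 0.12 to 0.19 and BCL2A1 at -0.15 to -0.075.

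**Figure D2:**
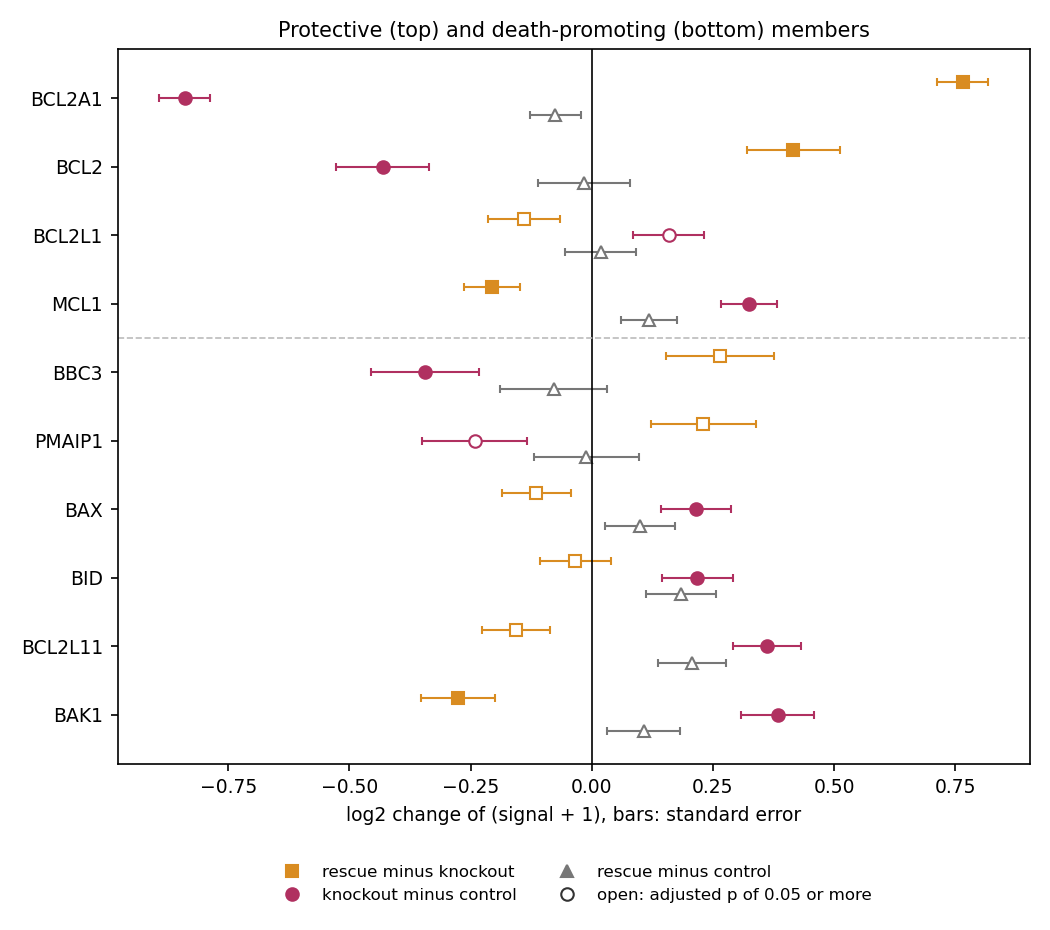
Log2 change of (signal + 1) with its standard error from limma for the 4 protective genes above the dashed line and the 6 death-promoting genes below it, in 3 comparisons; filled symbols have an adjusted p under 0.05. BCL2A1 has the largest change in both directions, at -0.84 in knockout minus control and 0.76 in rescue minus knockout, and no symbol is filled in rescue minus control.

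The order of levels was much the same in all groups. BCL2A1 came first, then MCL1, BAX and BCL2L11, each with libraries clear of the next gene. BID, BAK1 and BCL2L1 followed, and the order among these changed, with BAK1 above BCL2L1 in knockout (19.4 ± 0.885 and 18.4 ± 0.314, SD, n = 2) and below it in control (14.6 ± 0.517 and 16.4 ± 1.00). BBC3, BCL2 and PMAIP1 came last. Neighbours whose libraries overlapped were BID and BAK1, and BCL2 and PMAIP1, in knockout. In control they were BID and BCL2L1, and BBC3 and BCL2, and in rescue BCL2L1 and BAK1, and BBC3 and BCL2. These are transcript levels, and protein was not measured.

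The comparison of protective with death-promoting members was made per library, as a description with no test, since members are not replicates. The 4 protective genes summed to a signal of 182 and 178 in knockout and 245 and 238 in rescue, against 252 and 241 in control. The 6 death-promoting genes summed to 113 and 106 in knockout and 104 and 99.8 in rescue, against 97.0 and 88.8 in control. The protective sum was thus 2.36 and 2.39 times the death-promoting sum in rescue and 1.61 and 1.68 times in knockout, against 2.60 and 2.72 times in control. All 6 libraries had more protective than death-promoting transcript by this sum, and the knockout libraries had the smallest excess.

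Most of that difference lay in BCL2A1. It made up 54.9% and 54.7% of the protective sum in knockout, against 71.8% and 72.2% in control. With BCL2A1 left out, the protective sum was 0.727 and 0.76 of the death-promoting sum in knockout and 0.707 and 0.734 in rescue. In control it was 0.733 and 0.756, and the groups overlapped. The mean log2 level gives each gene the same weight. By it the protective side exceeded the other by 0.82 and 0.93 in knockout, against 1.16 and 1.18 in control, a difference of -0.30 that became -0.08 with BCL2A1 left out (0.20 and 0.32 in knockout, against 0.34 and 0.34 in control). The pair of MCL1 and BCL2L11, which both rose in knockout, showed overlapping ratios in knockout and control. MCL1 was 1.99 and 2.01 times BCL2L11 in knockout, against 2.00 and 2.13 times in control. In rescue MCL1 was 1.92 and 1.95 times BCL2L11, below both other groups.

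**Figure D3:**
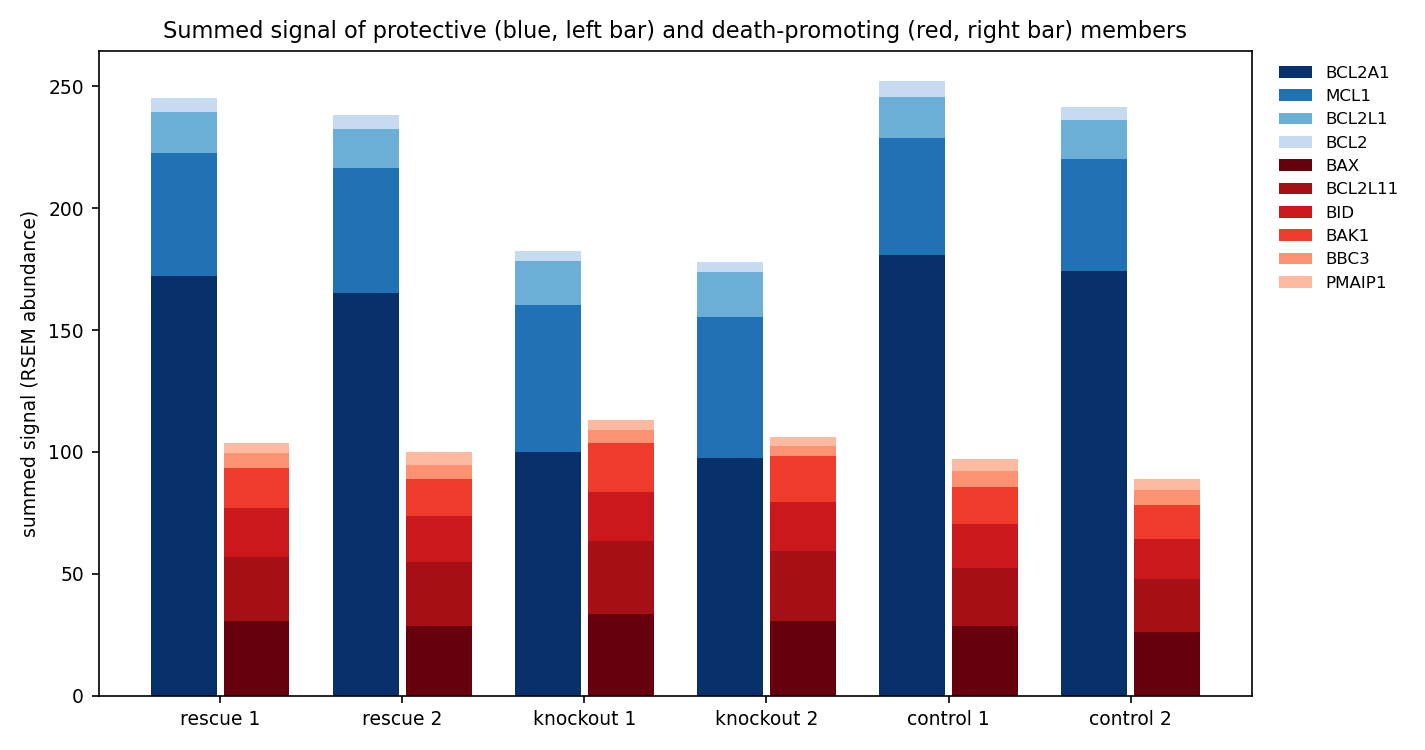
Summed signal (RSEM abundance, linear axis from 0) of the protective genes (blue, left bar) and the death-promoting genes (red, right bar), stacked by gene, in each library. The BCL2A1 block shrinks to 100.2 and 97.4 in the knockout libraries, against 181 and 174 in control, while the red bars are tallest in knockout.

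Promoter sequences, 250 bases before to 50 after a start, were taken from RefSeq (GRCh38.p14) for 9 of the 10 genes, all but MCL1. The 2 shown are those with a match to the PU.1 core, at BCL2A1, which fell in knockout, and BAK1, which rose. Capitals mark GAGGAAGT (ACTTCCTC on the other strand), the core bound by the myeloid factor PU.1, and TATAAA, the letters of the TATA box. Both strands were searched, and the motifs were picked after the sequences were seen. GAGGAAGT was found in 2.59% of 35116 promoter entries and TATAAA in 11.5%. The BCL2A1 window lies inside the gene as annotated in GENCODE, whose 5' end is also at 79971446. The RefSeq start used for BCL2A1 is thus downstream of that 5' end. The BAK1 match to the PU.1 core lies after the start used.
BCL2A1, chr15:79971147-79971446, minus strand: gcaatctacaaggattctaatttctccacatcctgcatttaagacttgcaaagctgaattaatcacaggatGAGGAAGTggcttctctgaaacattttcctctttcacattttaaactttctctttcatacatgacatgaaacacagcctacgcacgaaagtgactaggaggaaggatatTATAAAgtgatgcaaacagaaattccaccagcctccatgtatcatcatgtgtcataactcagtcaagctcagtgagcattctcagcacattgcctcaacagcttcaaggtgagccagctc
BAK1, chr6:33580227-33580526, minus strand: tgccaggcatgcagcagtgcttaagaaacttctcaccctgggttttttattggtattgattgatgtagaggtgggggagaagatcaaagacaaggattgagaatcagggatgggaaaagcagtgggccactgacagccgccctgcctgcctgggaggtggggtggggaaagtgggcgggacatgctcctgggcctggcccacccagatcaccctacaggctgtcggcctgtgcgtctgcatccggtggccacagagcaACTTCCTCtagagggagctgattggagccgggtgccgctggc

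The BCL2A1 promoter held 1 PU.1 core and 1 match to TATAAA. Its GC content was 41.0%, the lowest of the 14 entries of these genes, where the median of all promoters was 58.7%. BAK1 held 1 PU.1 core and 58.7% GC. BCL2L11 (74.7% GC), BCL2 (70.7%) and PMAIP1 (71.3%) held none of these motifs. BAX held 4 copies of CACGTG, an E-box bound by MYC and related factors, which 7.26% of all entries hold. BBC3 and some of the BID entries held 1 copy each, and a BCL2L1 entry held 2 matches to TATAAA. These matches are letters anywhere in a window, their distance from the start was not weighed, and they show no binding.

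Other genes of the family were taken from a list of 13, of which 9 were measured and 8 tested. BCL2L10, BCL2L14, BIK and BOK were not analysed here. BMF and BAD rose in knockout, 6 genes did not pass the test and none fell, with a median log2 change of 0.02 (0.07 over all genes). The share that rose was near that of all genes, 26.2%, and 13.5% of all genes fell. BMF, a BH3-only protein tied to the cytoskeleton, had 12.1 and 11.7 in knockout and 6.84 and 7.38 in rescue, against 6.56 and 5.88 in control (log2 change 0.84 in knockout, limma adjusted p = 8.88e-06, and -0.68 in rescue against knockout, 0.000102). On the log2(signal + 1) scale its rise was about as large as the fall of BCL2A1. The ratio of knockout to control means was 1.92 for BMF and 0.556 for BCL2A1, a larger change for BMF. BAD, a BH3-only protein controlled by phosphorylation, had 7.27 and 7.29 in knockout and 5.32 and 5.58 in rescue, against 5.42 and 4.67 in control (log2 0.46, limma adjusted p = 0.00188, and -0.36 against knockout, 0.0106).

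The remaining family genes tested did not pass in knockout against control. BCL2L2, which encodes the protective BCL-W, was at log2 0.04 (interval -0.19 to 0.28), but it shares sequence with the read-through BCL2L2-PABPN1, whose signal was 64.5 to 77.9, so its value is uncertain. BNIP3 was at 0.16, HRK at -0.05, and BCL2L12, BCL2L13 and BNIP3L within 0.0014 to 0.0057, with limma adjusted p of 0.176 to 0.989. BCL2L15 stayed under the filter, with 0.847 and 0.926 in knockout, against 0.308 and 0.378 in control.

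Downstream of the BCL2 family, the list of mitochondrial death machinery had 16 genes, all tested, of which 7 rose, 4 fell and 5 did not pass in knockout (median log2 0.12), where 26.2% of all genes rose and 13.5% fell. The risen genes included APAF1, the scaffold of the apoptosome, with 12.4 and 12.9 in knockout and 9.33 and 10.2 in rescue, against 9.31 and 8.44 in control (log2 0.47 in knockout, limma adjusted p = 0.000764). The knockout libraries were highest, and the lower rescue library lay just above the higher control library. CASP6, a caspase of the execution phase, was at 0.44 (limma adjusted p = 0.000609). DFFA, the inhibitor and chaperone of the caspase-activated nuclease, fell by 0.45. In rescue against knockout all of these passed the test too, with CASP6 at -0.25, APAF1 at -0.34 and DFFA at 0.42. Also fallen in knockout was CYCS, which encodes cytochrome c, at -0.32 (limma adjusted p = 0.0011), looked up after the count was seen.

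**Figure D4:**
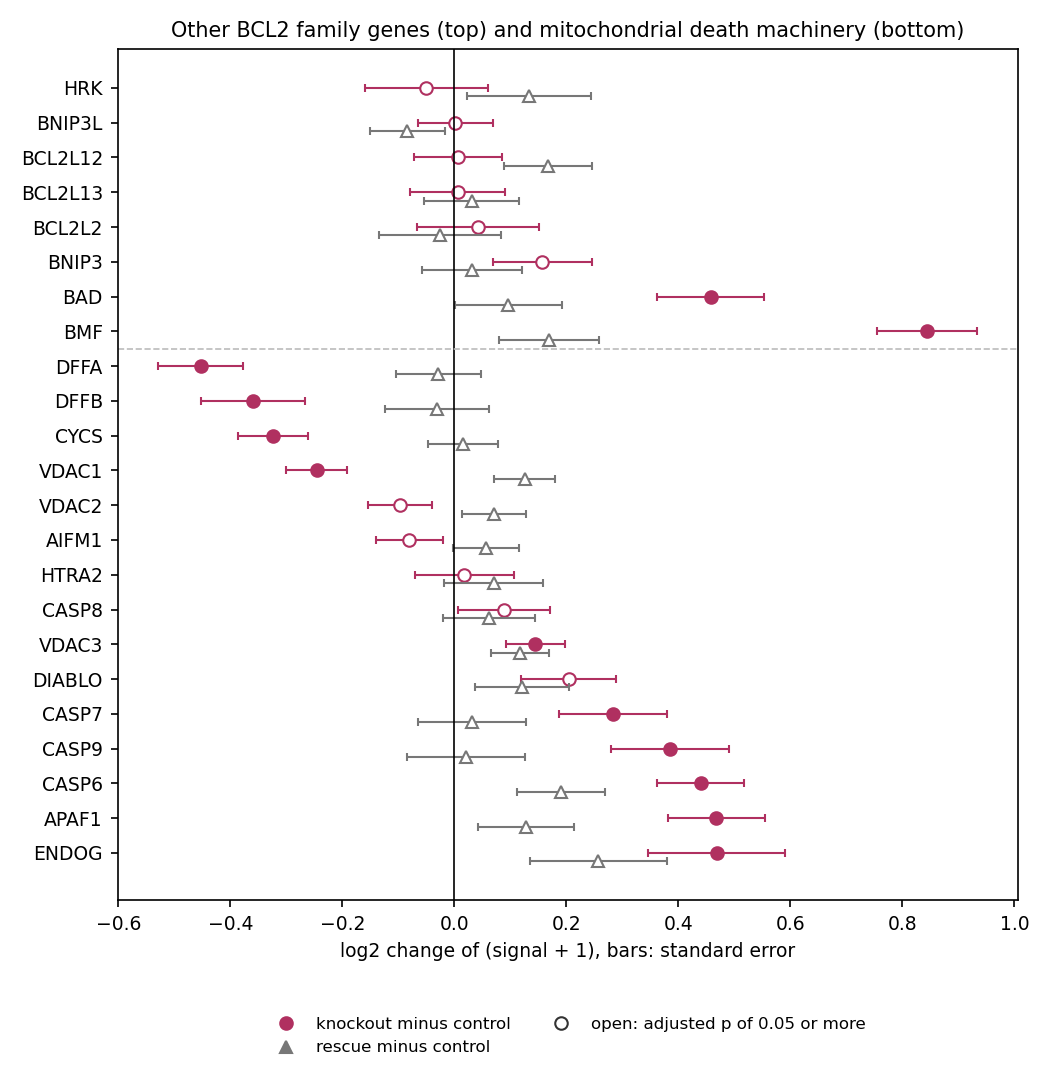
Log2 change of (signal + 1) with its standard error from limma for 8 other BCL2 family genes above the dashed line and 15 genes of the mitochondrial death machinery below it, in knockout minus control and rescue minus control; filled symbols have an adjusted p under 0.05. BMF lies farthest right at 0.84 and DFFA farthest left at -0.45, and no rescue minus control symbol is filled.

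Transcription factors known to act on these genes had 15 of 16 tested, with 4 risen, 2 fallen and 9 not past the test in knockout (median log2 0.11). Both counts were near the shares over all genes, 26.2% risen and 13.5% fallen, so the list did not stand apart by its counts, and the factors below are given as single genes. DDIT3, the stress factor CHOP, known to act on BCL2 and BCL2L11, fell by 0.90 (limma adjusted p = 1.63e-06), with 12.4 and 11.2 in knockout, against 23.8 and 21.9 in control. MYC fell by 0.49. RELA, the NF-kB subunit known to drive BCL2A1, rose by 0.55 (limma adjusted p = 0.000104). SPI1, which encodes PU.1, rose by 0.41 (limma adjusted p = 0.000415). Activity and binding of these factors were not measured, and their part in the changes of the members was not tested.

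MCL1 is set largely by protein turnover, and of 10 genes listed for it 9 were tested, with 2 risen, 2 fallen and 5 not past the test (median log2 -0.09), where 26.2% of all genes rose and 13.5% fell. The genes below are given singly, since counts this small do not set the list apart. USP13, a deubiquitinase known to stabilise MCL1 protein, fell by 0.52 (limma adjusted p = 0.000245). It had 9.15 and 8.99 in knockout, against 14.3 and 12.6 in control. MCL1 protein was not measured, and the part of USP13 in its level was not tested. DESI1 fell by 0.39. CDC20, an activator of the anaphase-promoting complex, rose by 0.26, and TRIM17, a ubiquitin ligase known to act on MCL1, by 0.41. In rescue against control no gene of these 3 pathway lists or of the further family genes was called by limma. At an unadjusted p under 0.05 there were 3 in the death machinery, 3 transcription factors, 1 gene of MCL1 turnover and 0 of the further family, where 11.5% of all genes were under it.

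The genes whose pattern over the 6 libraries was most like that of the 3 most changed members were found among 8819 genes with a mean signal of at least 5. Likeness was the Euclidean distance between the deviations of the 6 log2(signal + 1) values from their own mean, where 0 would be the same pattern. For BCL2A1 these were RNMT, the messenger RNA cap methyltransferase (distance 0.079), COPG2, a coatomer subunit (0.083), and RPS12, a ribosomal protein (0.10), which fell by 0.83, 0.86 and 0.82 in knockout. For BCL2 they were ADCY1, an adenylate cyclase (0.043), SMG1P1, a pseudogene (0.044), and DPP8, a dipeptidyl peptidase (0.044). For BAK1 they were PSD4 and CYTH1, exchange factors of ARF proteins (0.043 and 0.053), and SCAF1 (0.058). With so few libraries in 3 groups many genes share such a pattern.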

How the data were processed

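Per the labels' protocols, QIAzol RNA was depleted of ribosomal RNA and made into stranded TruSeq libraries. The submitters' processing notes name STAR, RSEM and the build GRCh38, with no version. The authors deposited 1 signal (an RSEM abundance) for each gene and library, and whether it is TPM or FPKM, or was rescaled, is not given in the sources used here.

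The tests used 12734 of 15059 genes, those whose signal reached 1 in 2 or more libraries. limma 3.58.1 (R 4.3.3) was run with a variance trend on log2(signal + 1), all 6 libraries together (3 residual and 11.0 prior degrees of freedom). Its two-sided p was adjusted by Benjamini-Hochberg across every gene tested, with a threshold of 0.05. Adding 1 understates the change of low genes. The members, lists, test and naming rule were chosen with earlier results of these data known. The text names the members, METTL16, MAT2A, every measured gene of the family list, the 4 genes of smallest p per pathway list and the 3 nearest genes to each of 3 members. Other genes are said to have been looked up. Some genes that this rule names, and a list, are not reported here. Coordinates and transcripts came from GENCODE release 29, which matched 13769 symbols. The fit was also run on simulated data with far fewer changed genes than were called here and no shift between libraries. Its outcome is not reported here and is not used as support. Sums and motif searches used Python 3.11.15 with pandas 2.3.3, and plots matplotlib 3.10.9.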

Additional observations from a re-analysis of the deposited data

How the results depend on the processing

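Alternatives were pseudocounts of 0.1 and 0.5, no filter, a minimum mean signal of 5, no variance trend, quantile normalization, median centring, only the 2 groups compared, the replicate block, and leaving out each of 6 libraries. In knockout against control, where 5 members rose and 3 fell, leaving out 1 library gave 3 to 6 risen and 2 to 3 fallen (3 risen without control replicate 2 or knockout replicate 1), and all 10 members kept their sign. BCL2A1, BCL2, MCL1, BCL2L11 and BAK1 kept their call under every alternative. In rescue against knockout, where 2 rose and 2 fell, the fallen count was 1 with no trend, 4 after quantile normalization and 0 to 3 with 1 library left out, and 2 to 3 rose. Over all genes, 4004 were called in rescue against knockout, 3557 with no trend and 5659 after quantile normalization. In rescue against control no member was called under any alternative, and the sign of uncalled log2 values turned. BCL2 ranged from -0.099 to 0.067 with 1 library left out (above 0 without control replicate 1), and PMAIP1 from -0.10 to 0.079 (above 0 without control replicate 1 or rescue replicate 1). BCL2L1 ranged from -0.040 to 0.077 (below 0 without control replicate 2 or rescue replicate 1) and was -0.041 after quantile normalization and -0.046 after median centring. The cause was not tested. The difference in balance of -0.30 lay between -0.35 and -0.24 with 1 library left out.

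Over all genes tested, 5056 were called in knockout against control (3497 to 5341 with 1 library left out) and 4004 in rescue against knockout (2488 to 5024, the lowest without rescue replicate 2). In rescue against control the count of 36 became 23 with no filter, 225 with a minimum mean of 5, 9 with no trend, 8 after median centring, 288 with only 2 groups, 382 with the replicate block and 8 to 292 with 1 library left out. The settings that left out no single library gave 4239 to 6333 calls in knockout against control and 3555 to 5659 in rescue against knockout. The highest counts came after quantile normalization, and the lowest with a minimum mean signal of 5. The shares of all genes set beside the member counts thus depend on the setting. Deviations of same-numbered libraries from their group means correlated across genes at 0.10, -0.05 and -0.01. No strong effect shared by replicate number was thus seen. With only 2 libraries a group, these values cannot show whether same-numbered libraries were prepared together, so the question of pairing stays undecided. With the replicate block 5 members rose and 3 fell in knockout, and 3 rose and 2 fell in rescue against knockout, the third riser being BBC3 (adjusted p = 0.0493). Only 2 libraries a group and an unknown depth limit what BCL2, BBC3 and PMAIP1, the least abundant members, can show.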
